A study of Mus musculus with 6 samples.

Results

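Translation initiation and elongation factors are the proteins that load a messenger RNA and the initiator tRNA onto the ribosome and then move the ribosome along the message. The genes described here were chosen by name from the deposited table of 55573 genes. The rule used none of their values, but it was set with earlier results of these data known. Symbols beginning with Eif1 to Eif6, Eef1 or Eef2 were taken, the eIF2 alpha kinases, the Eif2s3 genes and hyphenated symbols were left out, and 64 genes remained. Liver RNA of generation 3 mice was sequenced from polyA RNA in 2 groups of 3 libraries, to ask which pathways differ after the loss of p21. The p21TKO mice carry deletions of p21 (Cdkn1a, a cyclin-dependent kinase inhibitor), mTR (Terc, the RNA template of telomerase) and Wrn (a RecQ helicase), and are described as already progeroid. The DKO mice, which served as controls, carry the mTR and Wrn deletions alone, so both groups lack telomerase RNA and the Wrn helicase, and no library with these genes intact was analysed here. The labels name liver and normal feed, and the mark 2M in the titles is not explained. They do not say whether replicates were separate mice, so each p-value reflects only how these libraries spread, which may be technical.

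As background, initiation starts when eIF2 brings the initiator methionyl-tRNA to the small ribosomal subunit, together with eIF1, eIF1A, eIF5 and the large eIF3 complex. The eIF4 factors recognise the cap of the message and unwind it, and small eIF4E-binding proteins block that step unless the kinase mTORC1 phosphorylates them. During elongation eEF1A delivers aminoacyl-tRNA, the eEF1B subunits recharge eEF1A with GTP, and eEF2 shifts the ribosome to the next codon until eEF2 kinase inactivates it. In liver, which secretes most plasma proteins, these factors are among the abundant housekeeping transcripts.

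The FPKM denominators (the read numbers by which the authors scaled each library) corresponded to 19363284 to 27061290 reads per library. Cdkn1a stood at 1.41, 11.05 and 6.50 FPKM in the libraries labelled p21TKO, against 0.761, 1.79 and 0.405 FPKM in DKO livers, so the transcript was present in every library, and p21TKO replicates 2 and 3 lay above all DKO libraries. Which exons were removed is not stated, so these values do not check the deletion, and every direction below rests on the labels. Wrn was at 0.214 to 0.279 FPKM in p21TKO and 0.197 to 0.294 FPKM in DKO livers, and Terc was listed at 0 in every library. With no library that has these genes intact, the Wrn and Terc values do not check their deletions either. Libraries differed in sex-linked transcripts: Ddx3y, on the Y chromosome, was at 12.6 FPKM in p21TKO replicate 1, 11.6 FPKM in DKO replicate 2 and 11.4 FPKM in DKO replicate 3, and had no reads in p21TKO replicates 2 and 3 or DKO replicate 1. Principal component 1 (57.2% of the variance) placed p21TKO replicates 2 and 3 at 44.4 and 56.6, with p21TKO replicate 1 at -34.6 and DKO libraries from -33.6 to -7.7. The 5 hepatocyte markers (Alb, Apoa1, Ttr, Cps1 and Hnf4a) summed to 46412 to 51788 FPKM in p21TKO and 35808 to 45753 FPKM in DKO livers. Alb and Hnf4a followed this sum, while Apoa1 and Cps1 overlapped between groups. Ttr was at 7096 FPKM in p21TKO replicate 1 but at 3001 and 2420 FPKM in p21TKO replicates 2 and 3. These 2 values lay below all DKO libraries (3780 to 6996 FPKM). The 5 neutrophil markers summed to 24.1, 535.7 and 217 FPKM in p21TKO replicates 1 to 3 and to at most 27.2 FPKM in DKO livers. The summed Kupffer cell and endothelial markers, 5 of each, were likewise highest in p21TKO replicates 2 and 3, at 152 and 86.6 FPKM against 15.3 FPKM in p21TKO replicate 1 and 24.4 to 59.9 FPKM in DKO livers for the Kupffer cell markers. Single markers did not all follow the sum: Marco made up 45.1 FPKM of it in p21TKO replicate 3, where Clec4f (11.2 FPKM), Cd5l (15.8 FPKM) and Adgre1 (0.97 FPKM) lay below their levels in DKO replicate 1 (20.1, 24.9 and 1.56 FPKM). Stellate cell markers (4) summed to 28.7 to 39.8 FPKM in p21TKO and 15.9 to 27.0 FPKM in DKO livers, cholangiocyte markers (4) to 1.42 to 5.34 and 0.477 to 0.901 FPKM, lymphocyte markers (4) to 0.156 to 0.681 and 1.15 to 1.76 FPKM, and erythroid markers (4) to 14.1 to 546.3 and 81.8 to 457.1 FPKM. Among the stellate cell markers, Rgs5 was at 9.61, 4.95 and 4.54 FPKM in p21TKO replicates 1 to 3. In DKO livers it was at 6.1 to 7.98 FPKM. No marker in these lists was at 0 in every library. The part of these differences in the values below was not tested, and in bulk tissue fewer cells of a type and less RNA per cell cannot be told apart.

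Most of the translation factor genes had higher values in the p21TKO livers, by modest amounts, and none passed the test. Of the 64 genes, 59 had a mean of at least 1 FPKM and entered limma's test on log2(FPKM + 1) among 9538 genes. Of these 59, 48 had a positive log2 difference (p21TKO minus DKO) and 11 a negative one, with a median of 0.28, beside a median of 0.0 and 50.2% positive differences over all tested genes. With mitochondrially encoded genes left out of the scaling 45 were positive, since Eif4e2, Eif4g1 and Eif5, which lie near 0, turned sign. Over the other settings that tested 59 factors, 43 (sample weights) to 49 (without DKO replicate 3) were positive. Factors that turned sign under any setting differed by at most 0.19 in the main fit, as Eif3a did. No factor was called higher or lower (limma, Benjamini-Hochberg adjusted p under 0.05; smallest adjusted p = 0.5154), where 0.0315% of all tested genes were called higher and 0.0419% lower (0.0734% in all). At an unadjusted p under 0.05, limma listed 3 of the 59 (2 higher and 1 lower), which is 5.08% beside 9.38% of all tested genes (4.09% higher and 5.29% lower). The other tool run, limma voom on recovered reads, called 0 factors at the adjusted threshold and listed 4 at the unadjusted one. The share of all genes that voom listed at the unadjusted threshold was not counted, so these 4 have no background beside them. All 3 p21TKO libraries lay above all 3 DKO libraries for 11 of the 59 (18.6%), against 6.93% of all tested genes, and below them for 2 (3.39%), against 8.49% (15.4% in either direction). A p that misses the threshold does not show that levels were alike.

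**Figure D1:**
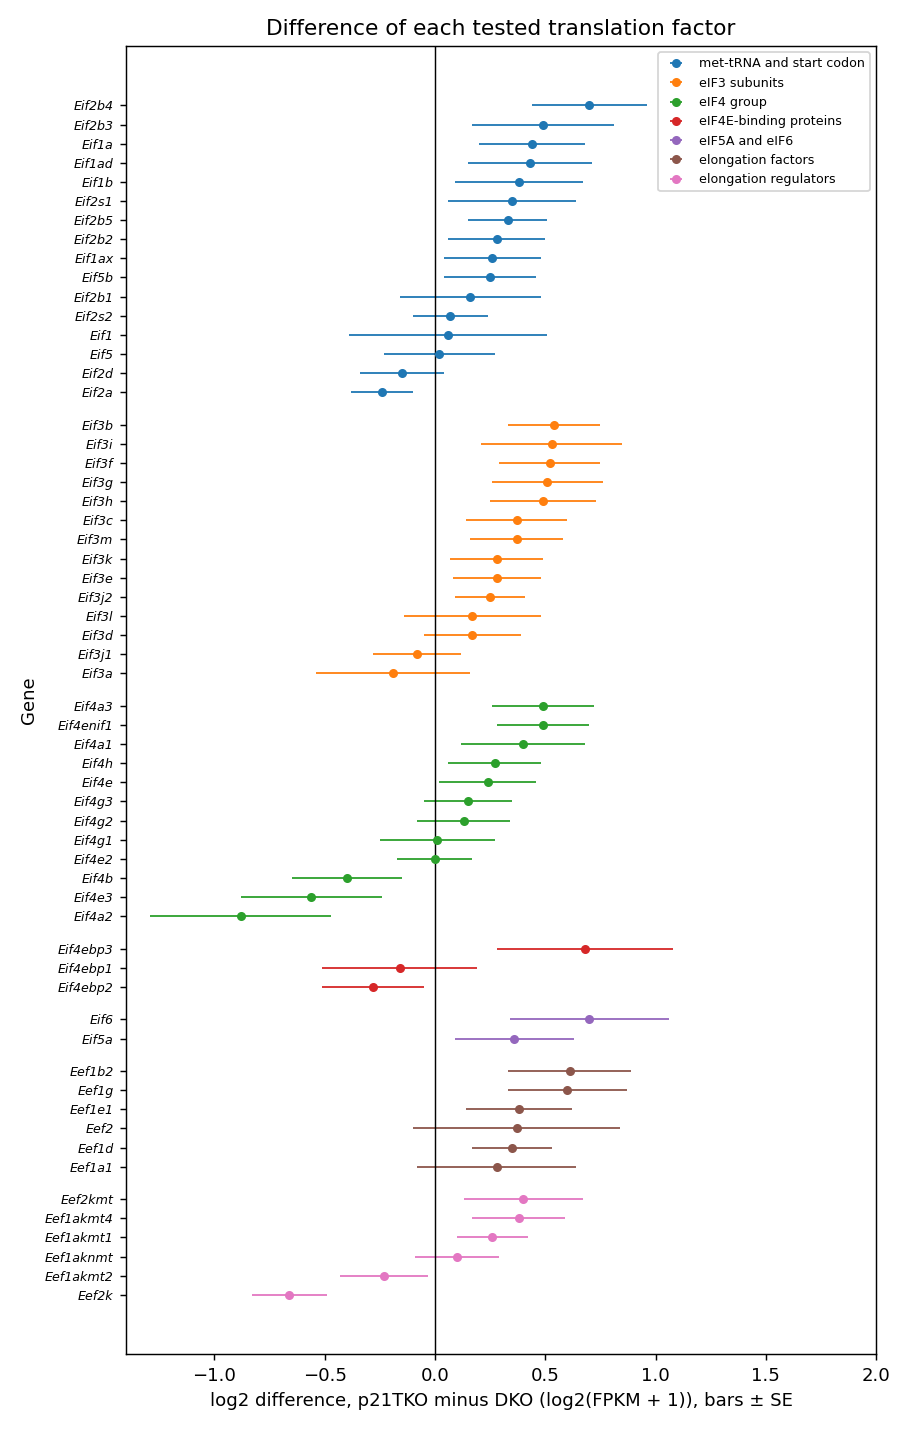
Difference of each of the 59 tested translation factor genes between p21TKO and DKO livers on the log2(FPKM + 1) scale, grouped and coloured by role, with bars of ± 1 SE from the limma fit. Points lie mostly right of 0, from -0.88 for Eif4a2 to 0.70 for Eif2b4 and Eif6, and the bars of many genes reach 0.

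The libraries did not share this shift equally. With each gene centred on its mean over the 6 libraries, the median of the 59 factors stood at -0.04, 0.06 and 0.33 in p21TKO replicates 1 to 3, against -0.19, -0.09 and -0.08 in DKO replicates 1 to 3. All 3 p21TKO medians lay above the 3 DKO medians, by little for p21TKO replicate 1 and by most for p21TKO replicate 3. Within libraries without Y-linked transcripts (p21TKO replicates 2 and 3 against DKO replicate 1) the median log2 difference was 0.39, and within libraries with them (p21TKO replicate 1 against DKO replicates 2 and 3) it was 0.09. Here and below, each such value rests on a single library on one side, so it has no error and was not tested. Sex cannot be told apart from anything else that sets p21TKO replicate 1 apart from p21TKO replicates 2 and 3. The factors together took 182793, 316735 and 344540 reads in p21TKO replicates 1 to 3, which is 0.944%, 1.38% and 1.27% of the denominator, against 0.972%, 0.93% and 1.06% in DKO replicates 1 to 3.

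Mean FPKM ran from 1.22 for Eef1aknmt to 1701 for Eef1a1 among the tested genes, and the elongation factors were at the top. Eef1a1 averaged 1895 ± 580 FPKM in p21TKO and 1507 ± 148 FPKM in DKO livers (SD, n = 3 each), and Eef2 averaged 505 ± 255 and 363 ± 92.9 FPKM. Together they made up 42.3%, 61.7% and 52.6% of all reads on the 64 genes in p21TKO replicates 1 to 3 and 52.6%, 45.5% and 52.3% in DKO replicates. Next in mean level over all libraries were Eif5a and Eif1, and 9 tested genes averaged 50 FPKM or more, while 12 averaged under 5 FPKM.

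**Figure D2:**
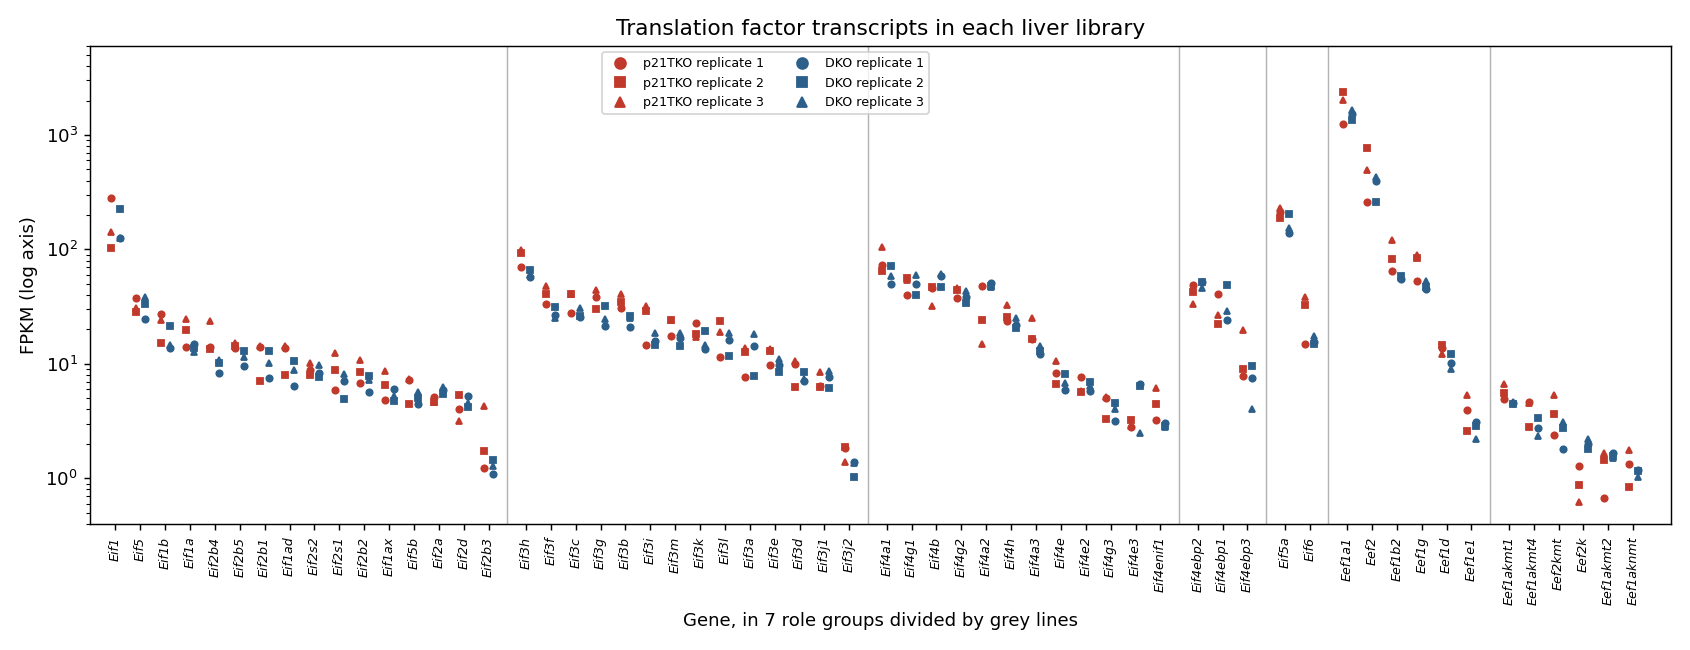
FPKM (log axis) of each tested translation factor gene in each library, with the p21TKO libraries (red) left of the DKO libraries (blue) and a marker shape for each replicate. Eef1a1 and Eef2 stand highest, and most genes lie between 3 and 100 FPKM with both groups close together.

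Promoter sequence was compared with these values for a motif that many growth-related genes carry, the E-box CACGTG, which reads the same on both strands and is bound by Myc and related factors. RefSeq promoter windows (GRCm38.p6, 250 bases before to 50 bases after each listed start) were found for 45 of the 59 tested genes, and 13 of these (28.9%) held the motif at 1 or more starts, against 12.5% of the 7039 tested genes with a window. The windows below run over the 100 bases before a start, with the E-box in capitals. For a gene with several listed starts, the first start with the motif in that stretch was taken, so these windows favour the motif. They show the 3 genes with an unadjusted p under 0.05 (Eef2k, Eif2b4 and Eif3b), a subunit gene whose groups did not overlap (Eif3f), the cap-binding protein gene Eif4e and the abundant Eef2. Eif3f, Eif4e and Eef2 were picked by no p rule and all hold the motif, so the 6 do not stand for the 45 genes. Eif2b4, Eif2b5, Eif3b, Eif4a3, Eif4enif1 and Eef1b2, also higher without overlap, hold none in their windows.
Eef2k, chr7:120842731-120842830, plus strand: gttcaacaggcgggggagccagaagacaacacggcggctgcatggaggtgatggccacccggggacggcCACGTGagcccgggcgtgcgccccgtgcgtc
Eif2b4, chr5:31193140-31193239, minus strand: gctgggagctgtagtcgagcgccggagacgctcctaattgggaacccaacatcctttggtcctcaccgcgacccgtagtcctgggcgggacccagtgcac
Eif3b, chr5:140419205-140419304, plus strand: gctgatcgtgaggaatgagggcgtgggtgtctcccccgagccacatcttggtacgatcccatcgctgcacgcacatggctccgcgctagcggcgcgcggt
Eif3f, chr7:108934315-108934414, plus strand: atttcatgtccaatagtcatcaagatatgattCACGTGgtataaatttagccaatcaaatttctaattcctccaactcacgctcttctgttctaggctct
Eif4e, chr3:138527168-138527267, plus strand: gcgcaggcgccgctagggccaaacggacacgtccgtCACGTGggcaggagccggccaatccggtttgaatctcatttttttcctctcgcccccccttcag
Eef2, chr10:81176531-81176630, plus strand: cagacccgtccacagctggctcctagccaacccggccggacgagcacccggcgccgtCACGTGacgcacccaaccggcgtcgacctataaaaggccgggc
Of the 6, Eef2k, Eif3f, Eif4e and Eef2 hold the motif in this stretch, and Eif2b4 and Eif3b do not. For Eef2k start 1 of 3 is shown and for Eif4e start 2 of 2. The windows of their other listed starts hold no E-box. The 13 tested factors with an E-box in their windows had a median log2 difference of 0.28, with 11 positive, and the 32 without had a median of 0.26, with 24 positive. Eef2k, with the lowest p of all factors and lower values in p21TKO livers, carries the motif at 1 of 3 listed starts. Eif3f, with higher values, carries it at its only listed start.

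All 6 tested elongation factor genes had positive differences (median 0.37). Of the 6, 3 (50%, against 6.93% of all tested genes) had every p21TKO library above every DKO library. Eef1g, the gamma subunit of the eEF1B complex, had 53.2, 84.2 and 89.9 FPKM in p21TKO replicates 1 to 3, against 44.9, 47.3 and 53.1 FPKM in DKO replicates. The lowest p21TKO library exceeded the highest DKO library only narrowly, and the test was not passed (log2 difference 0.60, SE 0.27, limma adjusted p = 0.531). Eef1b2, the catalytic exchange factor for eEF1A, stood at 65.4, 82.3 and 120 FPKM in p21TKO livers and at 54.6, 58.2 and 56.3 FPKM in DKO livers. Here the DKO libraries were tightly grouped (56.4 ± 1.81 FPKM, SD, n = 3) and the p21TKO libraries spread upwards (89.2 ± 28.0 FPKM; difference 0.61, SE 0.28, limma adjusted p = 0.531). Eef1d, the delta subunit that also carries exchange activity, had 13.8, 14.7 and 12.3 FPKM in p21TKO and 10.2, 12.1 and 9.10 FPKM in DKO livers (0.35, SE 0.18, limma adjusted p = 0.5562). Its difference was 0.36 both within libraries with and within libraries without Y-linked transcripts, whereas those of Eef1g were 0.09 and 0.94.

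Eef1a1 itself, which encodes the tRNA carrier, stood at 1259, 2395 and 2031 FPKM in p21TKO replicates 1 to 3, while DKO replicates held 1517, 1355 and 1649 FPKM. The groups overlapped, since p21TKO replicate 1 was the lowest of the 6 libraries (log2 difference 0.28, SE 0.36, limma adjusted p = 0.7841). Eef2, the translocase, had the same order of p21TKO libraries, at 257, 767 and 492 FPKM, against 399, 258 and 434 FPKM in DKO livers (0.37, SE 0.47, limma adjusted p = 0.7839). Eef1e1, which is the lowest tested gene of the group and whose protein sits in the multi-tRNA synthetase complex, averaged 3.95 ± 1.37 FPKM in p21TKO and 2.74 ± 0.484 FPKM in DKO livers (SD, n = 3 each; 0.38, SE 0.24, limma adjusted p = 0.6017). Eef1a2, the muscle and neuron form of eEF1A, had no reads in 5 libraries and 2 reads in DKO replicate 3. A count of 3 reads would have given 0.053 to 0.074 FPKM, a limit that covers counting error only.

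Among regulators of elongation, Eef2k was the factor gene with the lowest p of all 59. It encodes the calcium and calmodulin dependent kinase that phosphorylates and inactivates eEF2. It stood at 1.28, 0.870 and 0.624 FPKM in p21TKO replicates 1 to 3 (184, 148 and 125 reads), against 2.0, 1.82 and 2.21 FPKM in DKO replicates (356, 290 and 364 reads). Every p21TKO library lay below every DKO library, and the p21TKO mean was 0.46 times the DKO mean. The log2 difference was -0.66 (SE 0.17) and did not pass (limma unadjusted p = 0.00745, adjusted p = 0.5154); at these low values the added 1 FPKM shrinks it, and with a pseudocount of 0.1 it was -1.09. The difference was -0.78 within libraries without and -0.40 within libraries with Y-linked transcripts. Without p21TKO replicate 1 it passed (-0.79, limma adjusted p = 0.0472), which leaves the p21TKO group with no library that holds Y-linked transcripts; over all 9538 genes that fit called 225 higher and 270 lower.

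The ratio of Eef2k to Eef2 FPKM was 0.00499, 0.00113 and 0.00127 in p21TKO replicates 1 to 3 and 0.00502, 0.00705 and 0.0051 in DKO replicates. Replicates 2 and 3 of p21TKO were lowest, and p21TKO replicate 1 lay just under the lowest DKO library. The remaining regulators are methyltransferases that modify lysines of eEF1A or eEF2. Eef1akmt1 stood at 4.91, 5.52 and 6.71 FPKM in p21TKO and 4.57, 4.47 and 4.66 FPKM in DKO livers, without overlap (0.26, SE 0.16, limma adjusted p = 0.5866). Eef1akmt4 (0.38), Eef2kmt (0.40), Eef1aknmt (0.10) and Eef1akmt2 (-0.23) had overlapping groups and limma adjusted p from 0.5705 to 0.858. Eef1aknmt was the lowest in level of the tested regulators, at 1.32 ± 0.463 FPKM in p21TKO and 1.13 ± 0.0806 FPKM in DKO livers (SD, n = 3 each).

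**Figure D3:**
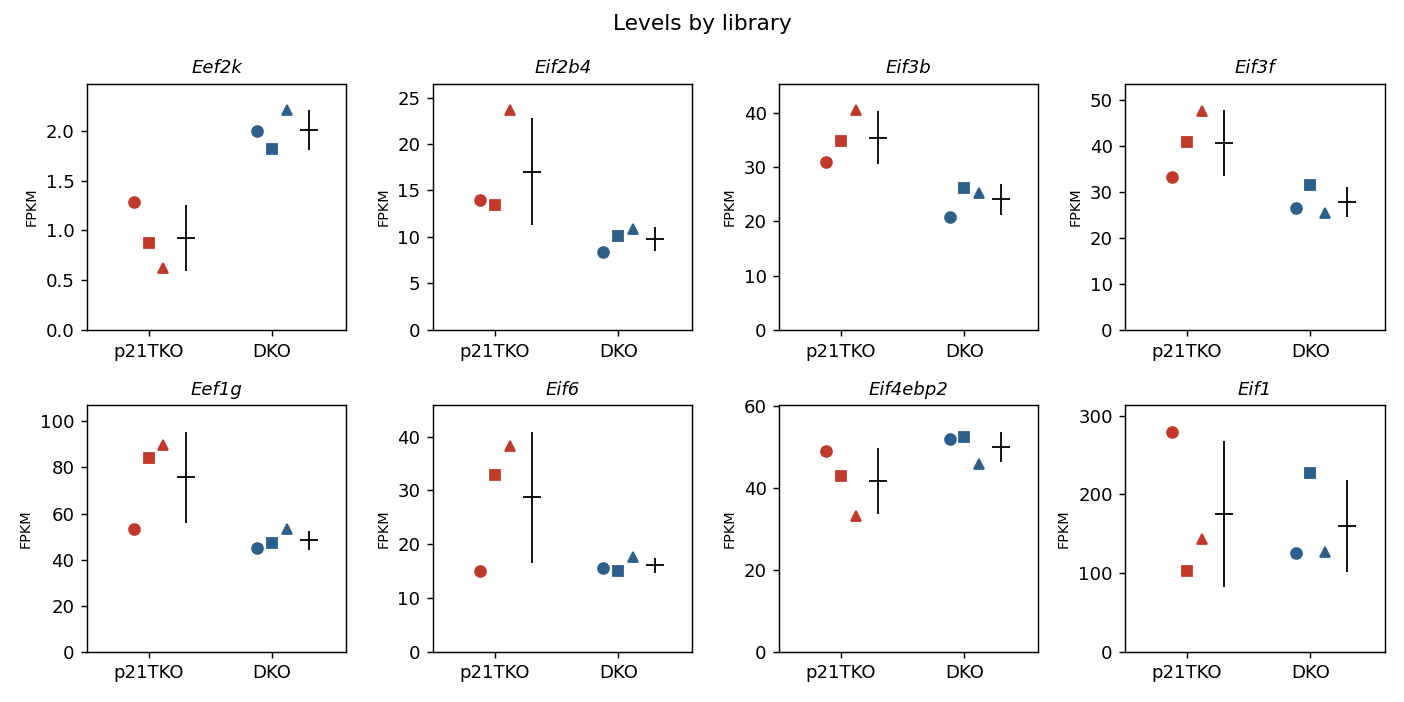
FPKM of 8 translation factor genes in each library, p21TKO left (red) and DKO right (blue), with circles, squares and triangles for replicates 1, 2 and 3 and black marks for the mean ± SD (n = 3). Eef2k is lower in all 3 p21TKO libraries, Eif2b4, Eif3b, Eif3f and Eef1g are higher in all 3, and Eif6, Eif4ebp2 and Eif1 overlap between groups.

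Genes for start codon selection and initiator tRNA delivery had 14 positive differences among 16 (median 0.27), and the eIF2B subunits held the largest. eIF2B is the 5-subunit exchange factor that reloads eIF2 with GTP and is the target of the integrated stress response. Eif2b4, its delta subunit, stood at 13.9, 13.4 and 23.7 FPKM in p21TKO replicates 1 to 3, against 8.41, 10.1 and 10.8 FPKM in DKO replicates. The groups did not overlap, p21TKO replicate 3 stood well above the rest, and the log2 difference was 0.70 (SE 0.26, limma unadjusted p = 0.0311, adjusted p = 0.5234). Eif2b5, the catalytic epsilon subunit, was at 13.7, 14.4 and 15.3 FPKM in p21TKO and 9.62, 13.02 and 11.4 FPKM in DKO livers, again without overlap (0.33, SE 0.18, limma adjusted p = 0.5705). Eif2b3, the gamma subunit and the lowest of the group, had 1.22, 1.73 and 4.32 FPKM in p21TKO livers (154, 259 and 762 reads) and 1.08, 1.45 and 1.27 FPKM in DKO livers (170, 203 and 184 reads). Its mean difference of 0.49 (SE 0.32, limma adjusted p = 0.6107) came mainly from p21TKO replicate 3, and leaving out 1 library in turn gave 0.12 to 0.75. The remaining subunit genes Eif2b1 (0.16) and Eif2b2 (0.28) overlapped between groups, so all 5 eIF2B subunit genes had positive differences and none passed.

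The eIF2 core subunits differed less. Eif2s1, the alpha subunit that stress kinases phosphorylate, averaged 9.03 ± 3.19 FPKM in p21TKO and 6.74 ± 1.63 FPKM in DKO livers (SD, n = 3 each; 0.35, SE 0.29, limma adjusted p = 0.6795), and Eif2s2, the beta subunit, 9.03 ± 1.08 and 8.58 ± 1.01 FPKM (0.07, SE 0.17, limma adjusted p = 0.904). Eif2a, which encodes an alternative initiator tRNA binding protein and not an eIF2 subunit, was one of the 2 genes with every p21TKO library below every DKO library. It had 5.15, 4.64 and 4.64 FPKM in p21TKO livers and 5.94, 5.48 and 6.24 FPKM in DKO livers, a small and tight difference of -0.24 (SE 0.14, limma adjusted p = 0.5797).

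Eif1, the start codon proofreading factor and the most abundant gene of this group, followed another order of libraries. It stood at 279, 103 and 143 FPKM in p21TKO replicates 1 to 3, and DKO replicates had 125, 227 and 127 FPKM, so p21TKO replicate 1 and DKO replicate 2 were high and the other 4 libraries were close together. Its mean difference was 0.06 (SE 0.45, limma adjusted p = 0.9692), and leaving out 1 library in turn gave -0.34 to 0.38. Eif1b, a close relative of Eif1, was also highest in p21TKO replicate 1, at 27.0, 15.1 and 24.2 FPKM in p21TKO and 13.9, 21.3 and 14.6 FPKM in DKO livers (0.38, SE 0.29, limma adjusted p = 0.6552). p21TKO replicate 1 and DKO replicate 2 were also the libraries with the largest share of reads on mitochondrially encoded genes, 8.2% and 13% of the denominator, against 3.6% to 6.6% in the others, and the part of this in the Eif1 values was not tested. Eif1a (0.44), Eif1ax (0.26), Eif1ad (0.43), Eif5b (0.25), Eif5 (0.02) and Eif2d (-0.15) had overlapping groups, with limma adjusted p from 0.568 to 0.9791.

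The eIF3 complex, the scaffold that holds the small subunit and the message together, had 12 of 14 subunit genes with positive differences (median 0.32). Of the 14, 3 (21.4%, against 6.93% of all tested genes) had every p21TKO library above every DKO library. Eif3b, a core subunit, stood at 30.9, 34.8 and 40.5 FPKM in p21TKO replicates 1 to 3, against 20.8, 26.1 and 25.3 FPKM in DKO replicates. The groups did not overlap, and the log2 difference was 0.54 (SE 0.21, limma unadjusted p = 0.0398, adjusted p = 0.5234). Eif3f, a subunit of the outer part of the complex, stood at 33.3, 41.0 and 47.7 FPKM in p21TKO and 26.6, 31.6 and 25.4 FPKM in DKO livers (0.52, SE 0.23, limma adjusted p = 0.5234). Eif3h, the most abundant subunit gene and a partner of Eif3f there, had 70.7, 93.1 and 98.0 FPKM in p21TKO and 57.5, 66.4 and 60.1 FPKM in DKO livers (0.49, SE 0.24, limma adjusted p = 0.5385). For all of these p21TKO replicate 1 was the lowest of its group, and the differences within libraries with Y-linked transcripts were 0.26 for Eif3b, 0.23 for Eif3f and 0.16 for Eif3h, against 0.82, 0.71 and 0.72 within libraries without them.

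Differences were unequal among subunit genes of this complex. Eif3i (0.53), Eif3g (0.51), Eif3c (0.37) and Eif3m (0.37) had values near the top, Eif3k and Eif3e were at 0.28 each, and Eif3l and Eif3d at 0.17 each, all with overlapping groups. Eif3a, the largest subunit, stood at 7.61, 12.7 and 13.8 FPKM in p21TKO and 14.3, 7.84 and 18.1 FPKM in DKO livers (-0.19, SE 0.35, limma adjusted p = 0.8664). It was low in p21TKO replicate 1 and DKO replicate 2, the libraries in which Eif1 was high. The loosely bound subunit has 2 genes: Eif3j1 was at 7.08 ± 1.27 FPKM in p21TKO and 7.54 ± 1.28 FPKM in DKO livers (SD, n = 3 each; -0.08, SE 0.20, limma adjusted p = 0.8951), and Eif3j2, the lowest of the group, at 1.70 ± 0.275 and 1.27 ± 0.20 FPKM (0.25, SE 0.16, limma adjusted p = 0.5979). The transcripts of Eif3j1 and Eif3j2 are 99.4% identical over 2379 bases, so their reads could be divided between them and both values are uncertain.

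The cap-binding and unwinding factors of the eIF4 group had 9 of 12 positive differences (median 0.14) and the widest range of any role group, from -0.88 to 0.49. Eif4a1 and Eif4a2 encode near-interchangeable RNA helicases. Eif4a1, the most abundant gene of the group, stood at 72.9, 64.5 and 106 FPKM in p21TKO and 50.1, 71.3 and 59.1 FPKM in DKO livers (0.40, SE 0.28, limma adjusted p = 0.6267). Eif4a2 stood at 47.6, 24.3 and 14.9 FPKM in p21TKO replicates 1 to 3, against 51.2, 48.2 and 46.5 FPKM in DKO replicates. p21TKO replicate 1 lay among the DKO libraries and p21TKO replicates 2 and 3 far below them, with a difference of -0.88 (SE 0.41) that missed the threshold (limma adjusted p = 0.531). Within libraries without Y-linked transcripts it was -1.38 and within those with them 0.01, and without p21TKO replicate 1 it passed at -1.30 (limma adjusted p = 0.0486). That fit called 225 higher and 270 lower over all 9538 genes. The ratio of Eif4a2 to Eif4a1 FPKM was 0.653, 0.377 and 0.142 in p21TKO replicates 1 to 3 and 1.02, 0.677 and 0.786 in DKO replicates. Each p21TKO library lay below every DKO library in this ratio, but not once the FPKM of a copy of Eif4a1 was added to that of Eif4a1, as given next.

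A processed pseudogene, Eif4a-ps4, is 99.9% identical to the Eif4a1 transcript over 1218 bases and was listed at 30.4, 57.3 and 67.8 FPKM in p21TKO and 36.4, 27.6 and 47.2 FPKM in DKO livers. Reads could be divided between the copies, so the Eif4a1 values are uncertain. The summed FPKM of Eif4a1 and the copy was 103, 122 and 173 in p21TKO and 86.5, 98.9 and 106 in DKO livers, where the lowest p21TKO library lay between DKO replicates 2 and 3. Against this sum, chosen after the data were seen, the Eif4a2 ratio was 0.461, 0.2 and 0.0862 in p21TKO and 0.592, 0.488 and 0.437 in DKO livers, so p21TKO replicate 1 lay above DKO replicate 3 and the groups overlapped. FPKM is scaled by the exon length of each gene, so reads on Eif4a1 and on the copy need not weigh alike in this sum. A ratio to summed reads was not computed, so the overlap is stated for summed FPKM only. Eif4a3, which acts in the exon junction complex and not in cap-dependent initiation, had 16.4, 16.3 and 25.2 FPKM in p21TKO and 12.1, 13.01 and 14.4 FPKM in DKO livers, without overlap (0.49, SE 0.23, limma adjusted p = 0.531).

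**Figure D4:**
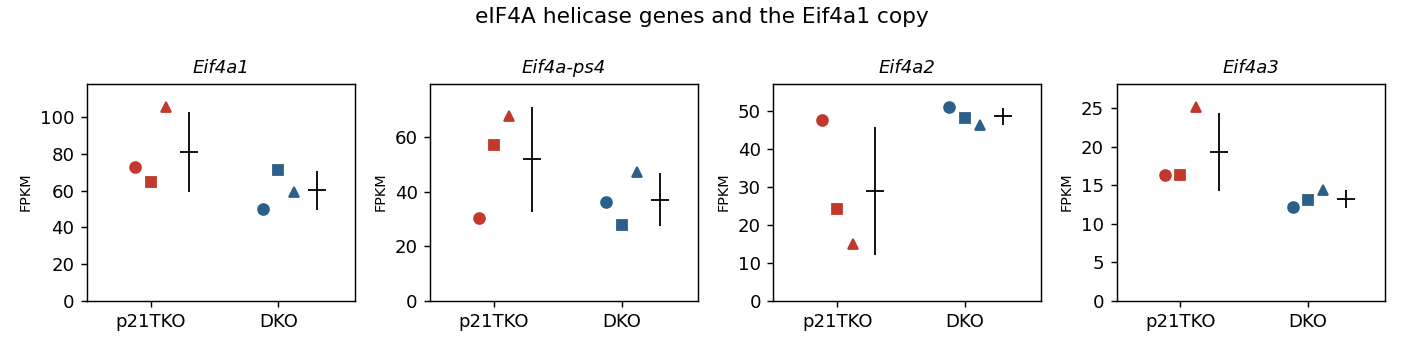
FPKM of the eIF4A helicase genes and of the processed pseudogene Eif4a-ps4 in each library, p21TKO left (red) and DKO right (blue), with circles, squares and triangles for replicates 1, 2 and 3 and black marks for the mean ± SD (n = 3). Eif4a2 is at 24.3 and 14.9 FPKM in p21TKO replicates 2 and 3 and between 46.5 and 51.2 FPKM in the other libraries, while Eif4a1 is highest in p21TKO replicate 3.

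The cap-binding protein gene Eif4e was at 8.53 ± 2.04 FPKM in p21TKO and 6.99 ± 1.13 FPKM in DKO livers (SD, n = 3 each; 0.24, SE 0.22, limma adjusted p = 0.701). Eif4enif1, whose protein carries eIF4E into the nucleus and to processing bodies, was the lowest tested gene of the group by mean level and had 3.21, 4.47 and 6.18 FPKM in p21TKO and 3.04, 2.84 and 2.83 FPKM in DKO livers. The DKO libraries were tight and all p21TKO libraries lay above them (0.49, SE 0.21, limma adjusted p = 0.5234), p21TKO replicate 1 by little. The scaffold gene Eif4g1 had 40.1, 56.3 and 54.5 FPKM in p21TKO and 49.7, 39.9 and 60.3 FPKM in DKO livers (0.01, SE 0.26, limma adjusted p = 0.9898), with Eif4g2 at 0.13 and Eif4g3 at 0.15. The helicase cofactor Eif4b had a negative difference (-0.40, SE 0.25, limma adjusted p = 0.60) and the other cofactor Eif4h a positive one (0.27). Of the further eIF4E relatives, Eif4e2 was at 0.00 and Eif4e3 at -0.56 (SE 0.32, limma adjusted p = 0.5797). Eif4e3 was at 2.83, 3.22 and 2.87 FPKM in p21TKO livers and at 6.74, 6.45 and 2.47 FPKM in DKO livers, so DKO replicate 3 lay below all p21TKO libraries.

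The 3 eIF4E-binding protein genes, which restrain cap-dependent initiation, showed no shared direction. Eif4ebp2, the most abundant, had 49.0, 42.8 and 33.0 FPKM in p21TKO and 52.0, 52.3 and 45.8 FPKM in DKO livers (-0.28, SE 0.23, limma adjusted p = 0.6841). Eif4ebp1 had 40.9, 22.1 and 26.5 FPKM in p21TKO and 24.2, 48.4 and 28.9 FPKM in DKO livers, with p21TKO replicate 1 and DKO replicate 2 high as for Eif1 (-0.16, SE 0.35, limma adjusted p = 0.8815). Its sign turned with the sex term and without p21TKO replicate 2 or DKO replicate 2. Eif4ebp3 had 7.91, 9.08 and 19.6 FPKM in p21TKO and 7.55, 9.49 and 4.05 FPKM in DKO livers, where the highest and the lowest library set the difference (0.68, SE 0.40, limma adjusted p = 0.5867). An annotated readthrough gene on the same strand covers 67.3% of the exon bases of Eif4ebp3, so its reads could be lost or divided in counting.

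Eif5a, whose product carries the modified amino acid hypusine and helps ribosomes through difficult sequences, stood at 213, 190 and 231 FPKM in p21TKO and 140, 205 and 153 FPKM in DKO livers (0.36, SE 0.27, limma adjusted p = 0.6507). Eif6, whose product binds the large subunit and keeps it from joining early, stood at 15.0, 32.9 and 38.3 FPKM in p21TKO replicates 1 to 3, against 15.6, 14.9 and 17.7 FPKM in DKO replicates. p21TKO replicate 1 was level with the DKO libraries while p21TKO replicates 2 and 3 were about as high as each other and well above (0.70, SE 0.36, limma adjusted p = 0.5466). Within libraries without Y-linked transcripts the difference was 1.14, within those with them -0.11, and without p21TKO replicate 1 it passed at 1.10 (limma adjusted p = 0.0382), in the fit that called 225 higher and 270 lower over all 9538 genes. The neutrophil, Kupffer cell and endothelial marker sums were highest in the same p21TKO replicates 2 and 3, and their part in this difference was not tested. The sequence relative Eif5a2 had 1, 9 and 6 reads in p21TKO and 6, 9 and 4 reads in DKO livers.

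Of the 64 genes, 5 stayed below a mean of 1 FPKM and were not tested. Besides Eef1a2 and Eif5a2 they were Eef1akmt3, with 1, 4 and 35 reads in p21TKO and 0, 7 and 3 reads in DKO livers, and Eif4e1b and Eif2c5, which had no reads in any library. Eif4e1b is a germline form of the cap-binding protein, and Eif2c5 is annotated as a long noncoding RNA gene and not as an initiation factor. For Eif4e1b, 3 reads would have given 0.049 to 0.069 FPKM.

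Near-identical copies touch 17 of the 64 genes (95% identity or more over 300 bases or more, against pseudogenes and the other factors), 10 of them with a copy that averaged at least 1 FPKM. For Eef1a1 the 8 copies together amounted to 4.41% of its mean FPKM, and for Eif1 the 12 copies to 8.34%. The Eif2s2 copy Gm9892, 99.5% identical over 992 bases, was listed at 6.92, 9.27 and 8.46 FPKM in p21TKO and 8.01, 5.81 and 9.75 FPKM in DKO livers. This is nearly the FPKM of Eif2s2 itself, whose union exons hold 6755 bases. FPKM is scaled by exon length, so it does not give the share of reads on the copy. The values of Eif2s2 are uncertain too, by an amount that was not computed. The Eef1g copy Gm4366 was listed at 7.43, 11.1 and 11.5 FPKM in p21TKO and 5.86, 6.06 and 6.77 FPKM in DKO livers, in the same order as Eef1g. Summed with it, Eef1g stood at 60.6, 95.4 and 101 FPKM in p21TKO and 50.8, 53.4 and 59.9 FPKM in DKO livers, still without overlap. Eef2kmt, Eif1ad and Eif3j1 share 10% or more of their exon bases with a gene on the other strand that averaged 1 FPKM or more, and no source used here says whether counting used strand.

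The differences of the factors were also set against exon length. Across the 59 tested genes, Spearman's rho between union exon length and the log2 difference was -0.41, so shorter genes tended to have the more positive differences. Over 9537 tested genes rho was -0.19, and over 78 cytosolic ribosomal protein genes it was -0.04. Genes are not independent replicates and share the same 6 libraries, so this is a description.

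The genes around the factors in the same process were described with lists chosen with earlier results of these data known, and no member of any of them passed. The cytosolic ribosomal protein genes had a median log2 difference of 0.77, with 76 of 78 positive and 39 without overlap (all higher; 50% of the list, against 6.93% of all tested genes), a larger shift than the 0.28 of the translation factors in the same libraries; the difference between the lists was not tested. Their centred medians were 0.15, 0.09 and 0.95 in p21TKO replicates 1 to 3 and -0.60, -0.01 and -0.51 in DKO replicates, so p21TKO replicate 3 was highest for them as for the factors. Genes for poly(A) binding, termination and recycling had a median of 0.12 (10 of 13 positive). Among them Pelo, which rescues stalled ribosomes, had 2.55, 2.29 and 2.59 FPKM in p21TKO and 1.43, 1.71 and 1.8 FPKM in DKO livers (0.39, SE 0.14, limma adjusted p = 0.5234). Paip1, a poly(A)-binding protein partner, was at 0.35 (SE 0.17, limma adjusted p = 0.5466) and the recycling factor relative Mcts2 at 0.59 (SE 0.26, limma adjusted p = 0.5234). The mitochondrial translation factors, which serve the separate ribosome of mitochondria, had a median of 0.02 (5 of 10 positive), with Gfm2 at -0.24, Guf1 at -0.16 and Mtif2 at -0.14 (limma adjusted p from 0.6959 to 0.7996).

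**Figure D5:**
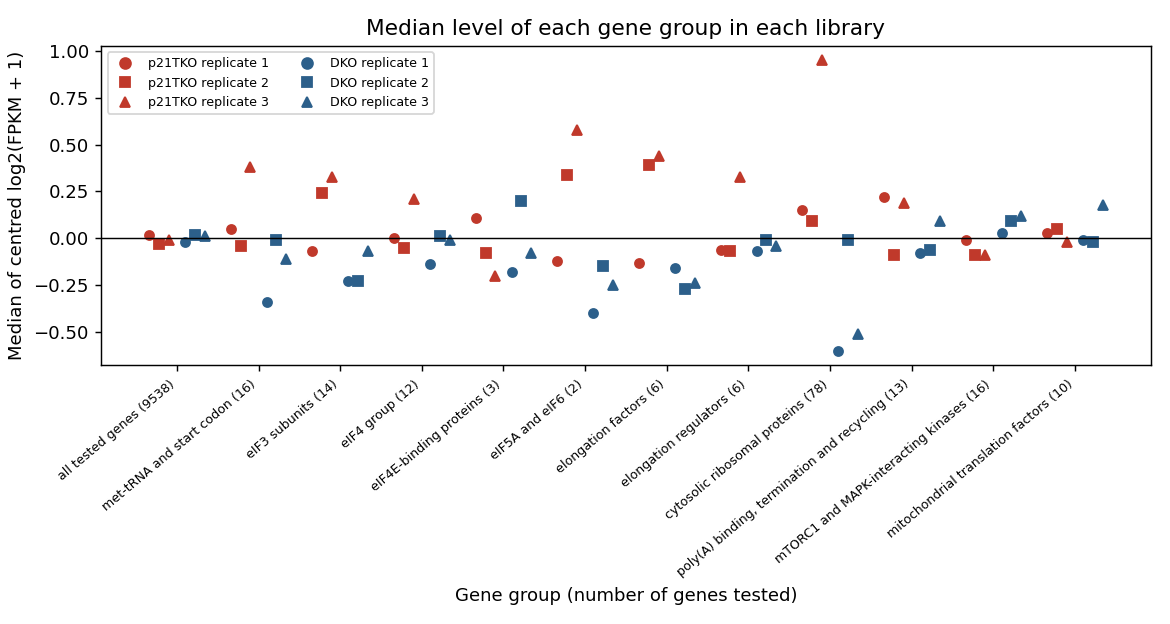
Median of log2(FPKM + 1), centred on each gene's mean over the 6 libraries, for each role group of the translation factors and for 4 neighbouring lists, with the p21TKO libraries (red) left of the DKO libraries (blue). p21TKO replicate 3 is highest for the factor groups except the eIF4E-binding proteins, and for the ribosomal proteins at 0.95, while all tested genes together stay within 0.03 of 0.

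Genes that control the factors had values in both directions. The list of mTORC1, the MAPK-interacting kinases and related regulators held 16 tested genes, of which 5 were positive and 11 negative (median -0.15). In 3 of the 16 (18.8%, against 8.49% of all tested genes) every p21TKO library lay below every DKO library. Deptor, an mTOR inhibitor, had 22.4, 8.88 and 5.97 FPKM in p21TKO and 20.65, 24.0 and 26.2 FPKM in DKO livers (-1.06, SE 0.44, limma adjusted p = 0.5234). As with Eif4a2 and Eif6, p21TKO replicate 1 was level with the DKO libraries. Tsc2, a brake on mTORC1, was at -0.42 (SE 0.18) and Sesn3, a nutrient-linked mTORC1 inhibitor, at -0.49 (SE 0.19), both with limma adjusted p = 0.5234. Ddit4, another mTORC1 inhibitor and named after its values were seen, had the largest positive difference of the list, with 9.53, 31.3 and 20.7 FPKM in p21TKO and 9.60, 11.4 and 8.59 FPKM in DKO livers (0.85, SE 0.41, limma adjusted p = 0.5364). Mtor itself (-0.20), Rptor (-0.15) and Rps6kb1 (-0.15) were negative too and Rheb was positive (0.18), all with overlapping groups. These were also named after their values were seen, and mTORC1 activity was not measured. Of 12 tested genes for the eIF2 alpha kinases, their phosphatase and stress targets, 6 were positive and 6 negative (median 0.05). Eif2ak2, the double-stranded RNA dependent kinase, had 2.16, 1.73 and 1.88 FPKM in p21TKO and 3.25, 2.84 and 2.90 FPKM in DKO livers, without overlap (-0.45, SE 0.14, limma adjusted p = 0.5234). Asns, the asparagine synthetase gene that ATF4 induces, ranged over 0.189, 2.20 and 4.26 FPKM in p21TKO and 2.68, 10.7 and 17.9 FPKM in DKO livers (-1.78, SE 0.74, limma adjusted p = 0.5234), and Trib3, another stress target, was at -0.27 (SE 0.14, limma adjusted p = 0.5486). Among the 6 positive genes were Ddit3 (0.72, SE 0.71) and Atf4 (0.39, SE 0.44), named after their values were seen, both with overlapping groups.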

How the data were processed

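The members and gene lists were chosen with earlier results of these data known. The deposited values are FPKM, computed by the authors for each gene in each library. The tools named in the submitters' processing notes are DESeq2 1.20.0, featureCounts 1.5.0-p3, HISAT2 2.0.5, CASAVA 1.8 and fastp, with no role or order. Those notes name human builds while the identifiers are mouse, so GENCODE M21 (GRCm38) positions and lengths were matched by identifier for 55480 genes. FPKM times union exon length gave whole reads within 0.02 reads for 99.3% of values above 0 in each library. Listed genes hold less than the whole denominator in some libraries.

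Group differences were fitted with limma 3.58.1 in R 4.3.3 (trend, two-sided) to log2(FPKM + 1) of genes with a mean of at least 1 FPKM with Benjamini-Hochberg adjustment over 9538 genes; the fit was tested on simulated data. Named with full statistics were factors with an unadjusted p under 0.05 or groups without overlap, the highest and lowest of each role group, and the eIF4E-binding proteins, and up to 3 genes per neighbouring list by p. Eif4a2, Eef2, Eif3a and others were named after their values were seen. Copies were found with BLAST 2.17.0, and Python 3.11.15 and matplotlib 3.10.9 were used. Alternatives were pseudocount, filter, scaling, variance model, replicate block, sex term, voom on recovered reads and leaving out each library; values within libraries with or without Y-linked transcripts were added after the data were seen.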

Additional observations from a re-analysis of the deposited data

How the results depend on the processing

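No factor was called under 16 of the 17 alternative settings. The exception was leaving out p21TKO replicate 1, where Eif6 was called higher and Eef2k and Eif4a2 lower. These are 3 of 59 factors, in a fit that called 225 higher and 270 lower over all 9538 genes. Leaving out 1 library in turn gave 0 to 1 factors called higher and 0 to 2 called lower, and 0 to 225 genes called higher and 1 to 270 called lower over all genes, against 3 and 4 in the fit with all 6 libraries. Over all genes the higher and lower calls were 5 higher with a pseudocount of 0.1, 0 higher and 1 lower with no filter, 2 lower at a mean of at least 5 FPKM, 8 higher and 13 lower with sample weights, and 0 higher and 1 lower with voom. With the replicate block 0 were called higher and 0 lower; replicate numbers do not pair the samples (correlations of deviations -0.44, -0.49 and -0.07 for numbers 1 to 3). The median of the tested factors ranged from 0.16 to 0.35 over all alternatives. That of the eIF4E-binding proteins was 0.06 with the sex term and -0.40 to 0.12 leaving out 1 library, and that of the elongation factors 0.35 to 0.67 leaving out 1 library. Among 25 named factors, Eef2k and Eif6 gained a call under leaving out p21TKO replicate 1 and none of the others did under any setting. Depth limits the genes under 2 FPKM, such as Eef2k with 125 to 364 reads, more than the abundant factors; for all of them the number of libraries limits precision.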
